A study of Sus scrofa with 24 samples.

Results

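The troponin genes TNNC2, TNNI1, TNNI2, TNNT1, TNNT2 and TNNT3 were followed through the development of pig longissimus dorsi, the long muscle of the back. They were picked by gene symbol in the array annotation, with earlier results of these data known. These 6 genes were taken from 6765 genes with a usable symbol, and each was carried by 1 of the 23999 probe sets tested, so the splice forms of a gene were not resolved. RNA pools came from Pietrain (Pi) and German Landrace (DL) pigs, as fetuses 35, 63 or 91 days after conception (days post conception, dpc) and as grown animals, and were hybridised to 24 Affymetrix GeneChip Porcine Genome Arrays. This gave 8 groups, Pi and DL at each of 4 stages, with 3 pools (a, b and c) per group. The labels give no treatment or engineered allele for any group. How old the adults were, whether animals were male or female and how many contributed RNA to each pool was not given in the sources used here, and each p-value therefore measures the spread between pools. A free-text label also calls the fetal pools peripubertal, and the K in the titles of the 35 dpc pools is not explained.

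Troponin is the calcium switch of the thin filament in striated muscle. Troponin C binds calcium, troponin I holds actin away from myosin at rest, and troponin T anchors the complex to tropomyosin. Fast fibres use TNNC2, TNNI2 and TNNT3, slow fibres use TNNC1, TNNI1 and TNNT1, and the heart uses TNNC1, TNNI3 and TNNT2. In mammals TNNT2 is also transcribed in immature skeletal muscle, and slow isoforms are widespread in fetal fibres. In the pig annotation TNNI2 and TNNT3 lie close together with 2 genes between them (LSP1 and LOC110259216), TNNI1 and TNNT2 with 1 gene between them (LAD1), and TNNT1 lies directly beside TNNI3. TNNC1 and TNNC2 lie on different chromosomes.

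Levels are log2 intensities, so a step of 1 is a doubling of signal on the assumption of base 2. Probes differ in affinity, and a level was therefore compared between groups for 1 gene at a time. The deposited columns hold the same set of values in all 24 arrays, so a change is measured against the rest of the array. All 6 genes lay above the highest unspiked control, the background ceiling of 2.31 to 2.69, in all 24 arrays. TNNC2 had at most 107 brighter probe sets in any array and as few as 2, so its signal sat near the top of the scale, where changes can be compressed. TNNT3 in adults, with 5 to 18 brighter probe sets, TNNI2 in adults, with 25 to 32, and TNNT1 in adults, with 26 to 43, were close to the top as well. So were 2 fast genes at 91 dpc. TNNT3 had 30 to 39 brighter probe sets in Pi and 26 to 29 in DL, and TNNI2 had 27 to 42 in Pi and 45 to 58 in DL. Pool b of the Pi adults stood apart in liver genes, with a log2 summed liver marker level of 15.24, against 9.03 and 9.78 in the other Pi adult pools and 9.92 to 10.94 in DL adults. Of 10 skeletal muscle marker genes, 8 were measured, and all 8 lay above background in every group. A set of 9 hybridisation control probe sets, spiked in at fixed amounts, averaged between 9.69 (Pi at 35 dpc) and 11.25 (Pi adults) over the groups. Shifting each array to equal control values moved the median of all probe sets by -0.78 for 63 minus 35 dpc and by 0.49 for Pi minus DL at 35 dpc. The GAPDH 3′ minus 5′ signal, a measure of RNA or cRNA length, was 1.41 ± 0.08 in Pi and 1.58 ± 0.19 in DL at 35 dpc and 0.15 ± 0.03 in Pi and 0.16 ± 0.04 in DL adults (SD, n = 3 pools).

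TNNI2 encodes fast troponin I, the inhibitory subunit of fast fibres. At 35 dpc its log2 intensity was 11.96, 11.99 and 11.92 in the Pi pools, against 12.49, 12.65 and 12.82 in the DL pools. By 63 dpc it was 14.77, 14.86 and 14.82 in Pi, against 14.78, 14.77 and 14.78 in DL. The breeds did not overlap at 35 dpc and overlapped at 63 dpc, and every pool at 63 dpc lay above every pool at 35 dpc. Values of 15.40, 15.24 and 15.30 followed in Pi at 91 dpc, against 15.06, 15.08 and 15.22 in DL. In adults the pools stood at 15.34, 15.39 and 15.36 in Pi, against 15.35, 15.32 and 15.37 in DL. The gain after 63 dpc was small beside the first, and the adult breeds overlapped.

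TNNT3 encodes fast troponin T, the tropomyosin-binding subunit of the same fibres. Its 35 dpc pools stood at 11.32, 11.16 and 11.18 in Pi, against 11.77, 12.02 and 12.17 in DL. At 63 dpc they were at 15.09, 14.78 and 14.87 in Pi, against 14.72, 14.84 and 14.93 in DL. The low Pi values were again seen at 35 dpc, and the breeds overlapped at 63 dpc. The 91 dpc values were 15.27, 15.26 and 15.36 in Pi, against 15.41, 15.37 and 15.37 in DL. Adult values were 15.65, 15.68 and 15.53 in Pi, against 15.62, 15.49 and 15.72 in DL. The adult pools of both breeds were the brightest of this gene.

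TNNC2 encodes fast troponin C, the calcium sensor. Its pools ranged from 14.71 to 14.77 in Pi and from 14.80 to 14.95 in DL at 35 dpc, and from 15.66 to 15.74 in Pi and from 15.77 to 15.86 in DL at 63 dpc. They ranged from 15.83 to 15.86 in Pi and from 15.81 to 15.90 in DL at 91 dpc, and from 15.54 to 15.62 in Pi and from 15.57 to 15.59 in DL adults. Its lowest and highest group means were 14.74 in Pi at 35 dpc and 15.85 in Pi at 91 dpc, the narrowest span of the fast genes, and the adult pools lay below the 91 dpc pools in both breeds.

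TNNI1 encodes slow troponin I. At 35 dpc it stood at 13.82, 13.84 and 13.84 in Pi, against 14.08, 14.08 and 14.06 in DL. At 63 dpc the pools overlapped, with 14.41, 14.35 and 14.29 in Pi and 14.31, 14.23 and 14.40 in DL. Pi pools at 91 dpc, at 13.75, 13.85 and 13.98, all lay below the DL pools, at 14.32, 14.15 and 14.10. In adults the Pi pools, at 14.69, 14.63 and 14.82, again lay below the DL pools, at 15.07, 15.18 and 15.07. The adult pools of both breeds were above all fetal pools, and DL adults were the highest group.

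TNNT1 encodes slow troponin T. The 35 dpc pools were at 14.32, 14.24 and 14.18 in Pi and at 14.27, 14.26 and 14.08 in DL. The 63 dpc pools were at 13.94, 13.92 and 13.91 in Pi and at 13.93, 13.89 and 13.85 in DL. Both breeds lay lower at 63 than at 35 dpc, with no overlap between the stages. At 91 dpc the Pi pools, at 13.25, 13.42 and 13.64, were the lowest of all, against 13.75, 13.92 and 13.80 in DL. Adult pools reached 15.25, 15.20 and 15.19 in Pi, against 15.28, 15.38 and 15.26 in DL. TNNT1 was thus lowest before birth and highest in adults, in both breeds.

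TNNT2 encodes the troponin T of the heart and of immature skeletal muscle, and it had the widest range of the 6 genes. At 35 dpc it was at 11.43, 11.52 and 11.29 in Pi, against 12.67, 12.87 and 12.74 in DL. At 63 dpc it was at 13.31, 13.32 and 13.44 in Pi, against 13.13, 13.26 and 13.08 in DL. The pools of the breeds did not overlap at either stage, with Pi lower at 35 dpc and above DL at 63 dpc. At 91 dpc the pools were at 12.26, 12.46 and 12.27 in Pi, against 11.86, 11.55 and 11.62 in DL. In adults they were at 8.49, 8.69 and 7.13 in Pi, against 7.32, 8.07 and 7.01 in DL. Adult pools were the lowest and the most spread, with Pi pool c apart from the other Pi adults, and every adult pool still lay at least 4.37 above its array's background ceiling.

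**Figure D1:**
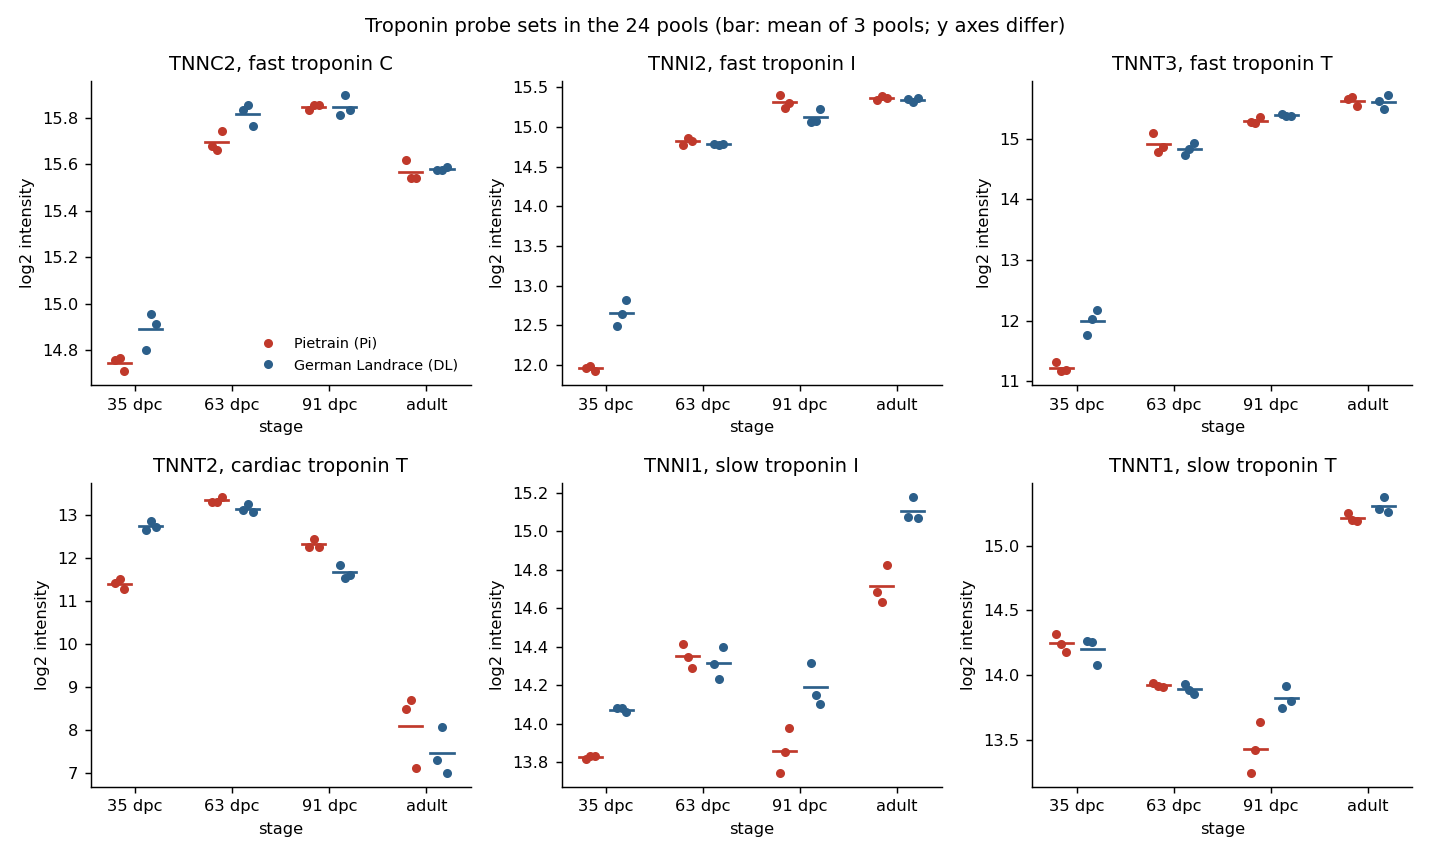
Log2 intensity of the 6 troponin probe sets in each of the 24 pools, by stage, with Pi in red to the left of DL in blue and a bar at the mean of 3 pools; the y axes differ. TNNI2 and TNNT3 climb steeply between 35 and 63 dpc, TNNI1 and TNNT1 are highest in adults, and TNNT2 peaks at 63 dpc (13.36 in Pi, 13.16 in DL) and is lowest in adults (8.10 in Pi, 7.46 in DL).

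The 8 group means of a gene were ranked, and neighbouring groups were checked for overlap of their pools. How often neighbours overlap over all probe sets was not counted, so these counts only describe the pools. For TNNT2 the pools of only 1 of 7 neighbouring pairs overlapped, Pi and DL adults, and the order from the top was Pi 63, DL 63, DL 35, Pi 91, DL 91, Pi 35, Pi adult and DL adult. For TNNT3 2 of 7 neighbouring pairs overlapped, the breeds at 63 dpc and the breeds as adults. For TNNI2, TNNI1, TNNT1 and TNNC2 3 of 7 did. The lowest group was Pi at 35 dpc for TNNC2, TNNI2, TNNT3 and TNNI1, Pi at 91 dpc for TNNT1 and DL adults for TNNT2.

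Between 35 and 63 dpc the fast isoforms rose steeply and slow troponin T fell slightly. Changes were tested with limma, averaged over both breeds, with a threshold of 0.05 on the p adjusted over all probe sets, and values after ± are standard errors. TNNT3 rose by 3.27 ± 0.07 on the log2 scale, a fold of 9.63 (adjusted p = 4.91e-17), and TNNI2 by 2.49 ± 0.05, a fold of 5.63 (adjusted p = 3.24e-17). These changes lay at the 98.9th and 97.4th percentiles of the changes of all probe sets. TNNC2 rose by 0.94 ± 0.04 (adjusted p = 1.1e-12), TNNT2 by 1.17 ± 0.21 (adjusted p = 0.00013) and TNNI1 by 0.38 ± 0.05 (adjusted p = 1.29e-05), the last turning to -0.40 when arrays were scaled to the hybridisation controls. TNNT1 fell by 0.32 ± 0.06 (adjusted p = 0.00027). All 6 genes passed, 5 higher and 1 lower, while 44.2% of the 23999 probe sets passed in this comparison, 22.3% higher and 22% lower. The median change of the 6 genes was 1.06, against 0.00 over all probe sets. With that scaling TNNI2 and TNNT3 were higher by 1.71 and 2.48, and TNNC2 at 0.16 (adjusted p = 0.102) and TNNT2 at 0.39 (adjusted p = 0.147) no longer passed. Of the 23999 probe sets 17379 passed with it, and the median change of all was -0.78.

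Each breed contributed to the first step, to a different degree. TNNT3 rose by 3.69 ± 0.10 in Pi and by 2.84 ± 0.10 in DL, and TNNI2 by 2.86 ± 0.08 in Pi and by 2.13 ± 0.08 in DL. TNNT2 rose by 1.94 ± 0.29 in Pi, and its change of 0.40 ± 0.29 in DL did not pass (adjusted p = 0.376). Within Pi 6 of 6 genes passed, where 37.4% of all probe sets did, and within DL 5 of 6, where 32.2% did.

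The partner genes of troponin that were measured changed over the same interval. Of 5 fast fibre partners on the array all 5 rose, with a median change of 3.77, among them MYOZ1, a Z-disc protein, by 5.12 ± 0.07, ATP2A1, the fast calcium pump, by 4.43 ± 0.12, and MYH2, a fast myosin heavy chain, by 3.77 ± 0.21. All 8 slow fibre partners rose too, with a median of 2.26, such as PLN, which restrains the calcium pump, by 3.28 ± 0.29, and SLN, another pump regulator, by 2.51 ± 0.05. Of 14 thin filament genes 6 rose and 3 fell. TMOD4, a cap of the pointed end of actin, rose by 5.08 ± 0.20, TMOD1, a related cap, by 2.18 ± 0.09, and TMOD3 fell by 3.31 ± 0.58. Of 11 regulators 5 rose and 1 fell, led by the myogenic factor MYF6 at 2.72 ± 0.18 and the TEA-domain factor TEAD4 at 2.38 ± 0.11. Neither of the 2 embryonic and cardiac partners, MYL4 and ACTC1, passed, at 0.76 ± 0.33 and 0.12 ± 0.18, although MYL4 had an unadjusted p under 0.05 in limma.

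Markers of muscle and of nerve moved with this step. All 8 measured skeletal muscle markers rose with a median of 2.63, and their log2 summed level was 17.11 to 17.18 at 63 dpc, against 15.44 to 15.68 at 35 dpc. All 8 measured nerve markers fell with a median of -9.47, a bound where a marker reached background, to a summed level of 7.79 to 8.17 at 63 dpc, against 15.24 to 15.55 at 35 dpc. Their part in the troponin changes was not tested, and in tissue RNA fewer cells of a type cannot be told apart from less RNA per cell.

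Between 63 and 91 dpc fast troponin I and T rose a little, while TNNT2, TNNI1 and TNNT1 fell on the mean of both breeds. TNNT3 rose by 0.47 ± 0.07 (adjusted p = 0.000114) and TNNI2 by 0.42 ± 0.05 (adjusted p = 1.57e-05). TNNT2 fell by 1.25 ± 0.21 (adjusted p = 0.000254), TNNI1 by 0.31 ± 0.05 (adjusted p = 0.000491) and TNNT1 by 0.28 ± 0.06 (adjusted p = 0.00265). TNNC2 differed by 0.09 ± 0.04 and did not pass (adjusted p = 0.137). Thus 2 genes were higher and 3 lower, while 18.3% of all probe sets passed, 8.88% higher and 9.4% lower. Within Pi 5 of 6 genes passed, against 11.6% of all probe sets, and within DL 3 of 6, against 10.8%. TNNI1 and TNNT1 changed by -0.49 ± 0.08 and -0.49 ± 0.09 in Pi, and their values in DL, -0.12 ± 0.08 and -0.07 ± 0.09, did not pass. Scaling to the hybridisation controls left 3 calls, those of TNNI1, TNNT1 and TNNT2, with TNNI2 at 0.25 (adjusted p = 0.0555) and TNNT3 at 0.30 (adjusted p = 0.0644), and turned the uncalled value of TNNC2 to -0.07.

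Among the partners, 3 of 5 fast fibre genes rose between 63 and 91 dpc, MYH2 by 4.85 ± 0.21, ATP2A1 by 2.58 ± 0.12 and MYOZ1 by 0.90 ± 0.07. Of 8 slow fibre partners 3 rose and 2 fell: PLN rose by 2.84 ± 0.29, and MYL3, a slow and ventricular myosin light chain, fell by 1.36 ± 0.12. Of 14 thin filament genes 5 rose and 2 fell. Of the 2 embryonic and cardiac partners 1 fell, MYL4, the embryonic and atrial light chain, by 1.75 ± 0.33, and ACTC1 at -0.18 ± 0.18 did not pass. One of 11 regulators rose, the coactivator PPARGC1A by 2.45 ± 0.35, and 1 fell, TEAD4 by 0.50 ± 0.11. Muscle markers rose in 6 of 8 cases, with a median of 0.36, and fat markers in 2 of 3. Markers of cycling cells fell in 4 of 4 cases, smooth muscle in 3 of 4, nerve in 2 of 8 and liver in 2 of 8, heart markers rose in 1 of 5, and their part in the troponin changes was not tested.

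Between 91 dpc and adulthood TNNT2 fell steeply and the slow isoforms rose. TNNT2 fell by 4.22 ± 0.21, a signal 18.6-fold lower in adults (adjusted p = 5.82e-12), with changes of -4.23 ± 0.29 in Pi and -4.21 ± 0.29 in DL. TNNT1 rose by 1.63 ± 0.06, a fold of 3.10 (adjusted p = 1.04e-13), and TNNI1 by 0.89 ± 0.05, a fold of 1.85 (adjusted p = 1.36e-10). TNNT3 rose by 0.27 ± 0.07 (adjusted p = 0.00314) and TNNI2 by 0.14 ± 0.05 (adjusted p = 0.0361), and TNNC2 fell by 0.28 ± 0.04 (adjusted p = 1.02e-05). All 6 genes passed, 4 higher and 2 lower, where 57.4% of all probe sets did, 30.8% higher and 26.6% lower. The median absolute change of the 6 genes, 0.58, was below the 0.70 of all probe sets. Within Pi 5 of 6 genes passed, against 47.8% of all probe sets, and within DL 5 of 6, against 45.4%. Under hybridisation-control scaling TNNT3 at 0.03 and TNNI2 at -0.11 no longer passed. The TNNI2 call also ended with any 1 of 7 pools left out, pools a and b of DL and b and c of Pi at 91 dpc, pools a and c of DL adults and pool b of Pi adults, at changes of 0.12 to 0.14 and adjusted p up to 0.086. Without pool b of the Pi adults, the one with liver genes, the other 5 genes kept their calls, with TNNT2 at -4.37 and TNNT1 at 1.64.

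GAPDH 3′ minus 5′ signal differed most at this step, and a fit with it as a covariate kept the calls of TNNC2, TNNI1, TNNT1 and TNNT2, while TNNT3 (0.42, adjusted p = 0.0844) and TNNI2 (0.33, adjusted p = 0.0567) did not pass. Both measured embryonic and cardiac partners fell, as TNNT2 did: MYL4 fell by 8.14 ± 0.33, and cardiac actin, ACTC1, fell by 4.62 ± 0.18. Slow fibre partners rose in 6 of 8 cases and fell in 1: MYL3 rose by 3.23 ± 0.12 and PLN by 1.79 ± 0.29, and CASQ2, a calcium store protein, fell by 5.57 ± 0.41. Fast fibre partners rose in 3 of 5 cases and fell in 1, ATP2A1 rising by 2.93 ± 0.12 and MYH2 by 2.18 ± 0.21. Of 14 thin filament genes 6 rose and 4 fell, and of 11 regulators 7 rose and 3 fell, with MYF5 falling by 4.35 ± 0.29 and MYF6 rising by 2.74 ± 0.18. Skeletal muscle markers rose in 5 of 8 cases and fell in 1, connective tissue markers fell in 4 of 5 and markers of cycling cells in 4 of 4. Red blood cell markers fell in 3 of 4 cases, smooth muscle in 2 of 4 (1 rose), nerve in 2 of 8, heart markers rose in 2 of 5 and liver in 2 of 8 (1 fell), fat had 1 of 3 higher and 1 lower, and their part in the troponin changes was not tested.

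**Figure D2:**
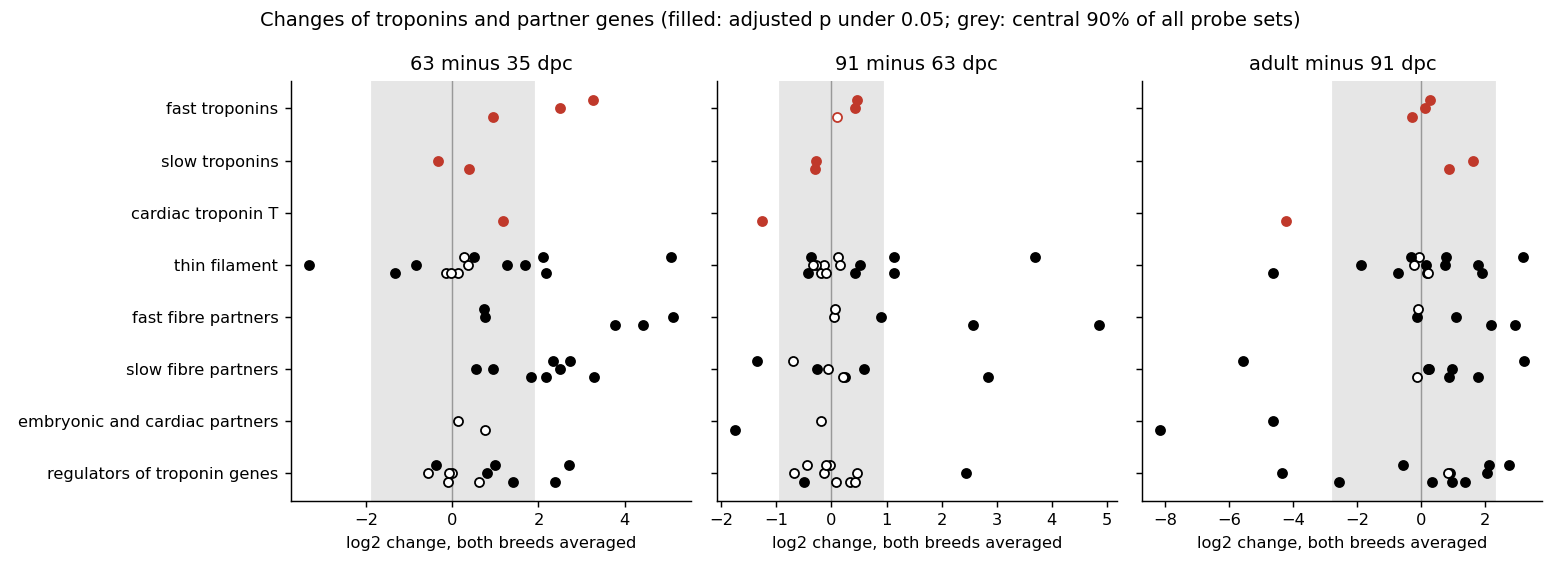
Log2 change of the mean of both breeds over each step for the 6 troponins (red) and of the partner genes by list (black), each point 1 gene, filled where the limma adjusted p is under 0.05; the grey band holds the central 90% of all probe sets and the x axes differ. TNNT3 (3.27) and TNNI2 (2.49) leave the band at 63 minus 35 dpc, and TNNT2 leaves it at 91 minus 63 dpc (-1.25) and at adult minus 91 dpc (-4.22).

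The heart isoforms outside the 6 genes were also on the array. TNNI3, cardiac troponin I, was dim: its group means were 6.56, 4.97, 5.90 and 7.62 in Pi and 5.82, 4.78, 6.12 and 8.23 in DL from 35 dpc to adults. It fell by 1.31 ± 0.28 from 35 to 63 dpc and rose by 1.14 ± 0.28 and 1.92 ± 0.28 over the next steps, so it ran against TNNT2 at each step. TNNC1, the slow and cardiac troponin C, changed by 0.50 ± 0.06, -0.37 ± 0.06 and 0.79 ± 0.06, the same signs as TNNI1. Of 11 heart markers 5 were measured, and TNNI3 alone lay above background in all 24 arrays, while NPPA, NPPB, GATA4 and RYR2 ranged from 2.04 to 4.98.

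Differences between 2 isoforms on the same array remove any shift shared by a whole array. Their zero has no meaning, since probes differ in affinity. Their change between groups does not depend on affinity as long as signal follows RNA amount evenly. Near the top of the scale, where changes can be compressed, this need not hold. TNNI2 minus TNNI1 was -1.86, -1.85 and -1.91 in Pi, against -1.59, -1.43 and -1.24 in DL, at 35 dpc. It was 0.36, 0.51 and 0.53 in Pi, against 0.47, 0.54 and 0.38 in DL, at 63 dpc. The difference moved towards fast troponin I in both breeds. At 91 dpc it stood at 1.66, 1.39 and 1.32 in Pi, against 0.74, 0.93 and 1.12 in DL, and in adults at 0.65, 0.76 and 0.54 in Pi, against 0.28, 0.14 and 0.30 in DL. The balance of the troponin I pair thus peaked at 91 dpc and came part of the way back in adults.

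The steps of the troponin I pair were 2.11 ± 0.08, 0.73 ± 0.08 and -0.75 ± 0.08 (limma, adjusted p = 1.66e-13, 2.80e-06 and 2.06e-07). Troponin T followed the same course: TNNT3 minus TNNT1 changed by 3.58 ± 0.09, 0.75 ± 0.09 and -1.36 ± 0.09. Its group means were -3.03, 0.99, 1.86 and 0.41 in Pi and -2.21, 0.94, 1.56 and 0.30 in DL from 35 dpc to adults. Troponin C had smaller steps, with TNNC2 minus TNNC1 changing by 0.44 ± 0.07, 0.46 ± 0.07 and -1.06 ± 0.07. So the fast member gained on the slow member before birth and lost ground after 91 dpc in all 3 subunits. Over this last step the slow genes rose, by 0.89, 1.63 and 0.79 for TNNI1, TNNT1 and TNNC1, while TNNI2, TNNT3 and TNNC2 changed by 0.14, 0.27 and -0.28. These fast genes were near the top of the scale at 91 dpc and in adults, where changes can be compressed. TNNT1 was there too, with 38 to 43 brighter probe sets in Pi adults and 26 to 36 in DL adults. How far compression shaped the adult loss was not tested.

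Cardiac troponin T lost ground to both other troponin T isoforms by adulthood. TNNT3 minus TNNT2 changed by 2.10 ± 0.22, 1.72 ± 0.22 and 4.49 ± 0.22. TNNT1 minus TNNT2 changed by -1.49 ± 0.21, 0.97 ± 0.21 and 5.85 ± 0.21, so slow troponin T lost ground to TNNT2 in the first step and gained in both later ones. All 15 step changes of the 5 pairs passed in limma. The exact two-sided permutation test, with stage labels permuted within breed, gave p = 0.005 for each of the 12 steps of the first 4 pairs tested that way, the smallest it can give, and 0.00667 after adjustment over 16 tests. One call ended under another setting: TNNI2 minus TNNI1 for adult minus 91 dpc was -0.47 with the GAPDH covariate (adjusted p = 0.0689).

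**Figure D3:**
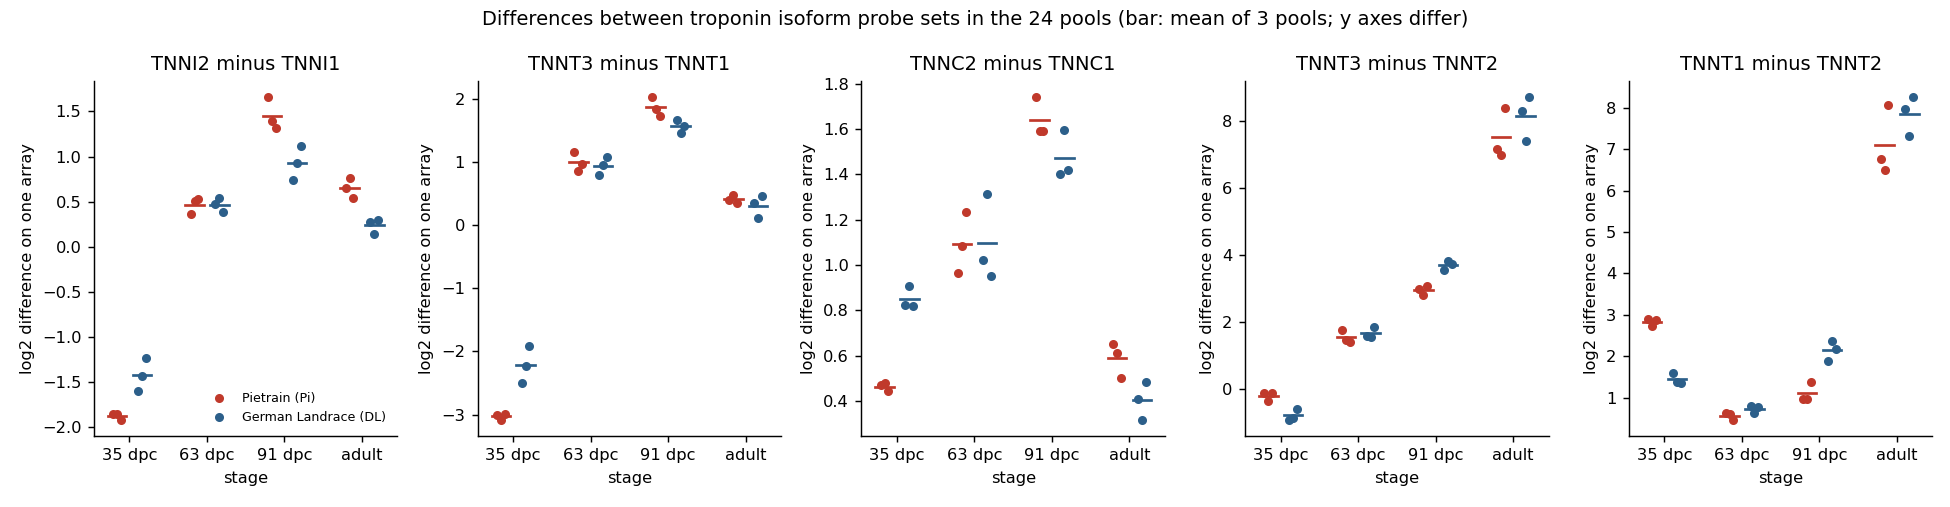
Log2 difference between 2 troponin probe sets on the same array in each of the 24 pools, with Pi in red to the left of DL in blue and a bar at the mean of 3 pools; the y axes differ and their zero depends on probe affinity. The 3 fast minus slow differences peak at 91 dpc (1.45 in Pi and 0.93 in DL for TNNI2 minus TNNI1), and both differences against TNNT2 are largest in adults.

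At 35 dpc the fast troponin I and T and cardiac troponin T were lower in Pi than in DL. TNNT2 was lower by 1.35 ± 0.29 on the log2 scale, 2.54-fold (limma, adjusted p = 0.0132), TNNT3 by 0.76 ± 0.10, 1.70-fold (adjusted p = 0.000268), and TNNI2 by 0.70 ± 0.08, 1.62-fold (adjusted p = 4.75e-05). All 3 Pi pools lay below all 3 DL pools for each of them, which is no further test, and how many of all probe sets separate this way was not counted. These 3 calls of 6 genes stand beside 4.03% of all probe sets called, 2.41% lower. TNNI1 at -0.24 ± 0.08 (adjusted p = 0.0985), TNNC2 at -0.14 ± 0.06 (adjusted p = 0.213) and TNNT1 at 0.05 ± 0.09 did not pass, with 95% intervals of -0.41 to -0.08, -0.26 to -0.03 and -0.14 to 0.23. In other limma fits TNNI1 was called lower in Pi, with array weights (adjusted p = 0.00523), in the 35 dpc groups alone (0.0344) and with a trended, robust prior (0.0431). TNNC2 was called lower with array weights (adjusted p = 0.0275) and with that prior (0.0474). The call of TNNT2 ended without DL pool b (-1.29, adjusted p = 0.0573) or Pi pool c (-1.28, adjusted p = 0.0578). With arrays scaled to the hybridisation controls none of the 3 passed, at -0.85, -0.27 and -0.21 for TNNT2, TNNT3 and TNNI2 (adjusted p = 0.0597, 0.189 and 0.224), while TNNC2 turned to 0.35 and TNNT1 moved to 0.54, both called higher in Pi, and TNNI1 turned to 0.25 without a call.

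The isoform differences at 35 dpc, which no shift of a whole array can move, also differed between breeds. TNNT3 minus TNNT1 was lower in Pi by 0.81 ± 0.13 (adjusted p = 0.00151), TNNI2 minus TNNI1 by 0.45 ± 0.11 (adjusted p = 0.0287) and TNNC2 minus TNNC1 by 0.39 ± 0.09 (adjusted p = 0.027), and TNNT1 minus TNNT2 was higher by 1.39 ± 0.29 (adjusted p = 0.01). TNNT3 minus TNNT2 differed by 0.58 ± 0.31 and did not pass (adjusted p = 0.451). Both called troponin T differences kept their calls with each pool left out, with adjusted p up to 0.00898 for TNNT3 minus TNNT1 and 0.0425 for TNNT1 minus TNNT2. The troponin I difference lost its call in 5 of 6 such fits, all but the one without DL pool a (-0.36 without DL pool c, adjusted p = 0.154), and the troponin C difference in 6 of 6 (adjusted p up to 0.11). A fit of the 35 dpc groups alone gave the same sizes with adjusted p of 0.0629 for TNNT3 minus TNNT1 and 0.0791 for TNNI2 minus TNNI1.

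Other muscle genes differed at 35 dpc too. Of the 8 skeletal muscle markers 4 were lower in Pi and none higher, with a median of -0.59: CKM, muscle creatine kinase, ranged from 10.26 to 10.37 in Pi, against 11.19 to 11.60 in DL, and DES, the intermediate filament desmin, from 10.09 to 10.43 in Pi, against 10.81 to 10.85 in DL. The summed level of the muscle markers was 15.44 to 15.50 in Pi and 15.59 to 15.68 in DL. Among partners 1 of 5 fast fibre genes was lower in Pi, ATP2A1 (-1.19 ± 0.17), and 1 of 8 slow fibre genes, MYH7, the slow myosin heavy chain (-0.59 ± 0.09). Of 14 thin filament genes 2 were lower, CAPZA2, an actin capping subunit (-0.75 ± 0.17), and the tropomyosin TPM2 (-0.74 ± 0.10), and 1 was higher, TMOD3 (3.31 ± 0.82). In limma 0 of 2 embryonic and cardiac partners and 0 of 11 regulators passed, with 0 and 1 at an unadjusted p under 0.05. Of other markers HBE1, embryonic globin (-1.99 ± 0.18), 1 of 4 for red blood cells, and SMTN, smoothelin (-0.67 ± 0.12), 1 of 4 for smooth muscle, were lower, and 1 of 8 nerve markers was higher. The part of these genes in the troponin differences was not tested.

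No troponin passed at 63 dpc in limma, where 1.37% of all probe sets did, and 1 of 6, TNNC2, had an unadjusted p under 0.05. The 95% intervals of Pi minus DL were -0.12 to 0.20 for TNNI2, -0.13 to 0.30 for TNNT3 and -0.42 to 0.82 for TNNT2. The first 2 intervals do not hold the 35 dpc estimates of -0.70 and -0.76, which carry errors of their own. Under hybridisation-control scaling those 35 dpc estimates were -0.21 and -0.27. The change of the breed difference between the stages was tested as an interaction, given below. The other fits called 0 genes at 63 dpc as well. The log2 summed liver marker level was 11.39 to 11.59 in Pi and 13.04 to 14.94 in DL at this stage. Of the markers 3 of 8 for liver and 1 of 4 for red blood cells were lower in Pi and 1 of 8 for nerve was higher, and their part was not tested.

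At 91 dpc both slow isoforms were lower in Pi. TNNT1 was lower by 0.39 ± 0.09 (adjusted p = 0.0202) and TNNI1 by 0.33 ± 0.08 (adjusted p = 0.027), with no overlap of pools. These 2 calls stand beside 2.72% of all probe sets called, 1.38% lower. TNNI2 at 0.19 ± 0.08 and TNNT2 at 0.66 ± 0.29 did not pass. Their pools did not overlap either, with Pi higher. The pools of TNNT3, also not called, did not overlap with Pi lower, at most 15.36 against at least 15.37 in DL. How many of all probe sets separate this way was not counted. Under hybridisation-control scaling TNNI2 turned to -0.23, and TNNC2 (-0.42) and TNNT3 (-0.51) were called lower in Pi beside the slow genes. TNNI2 minus TNNI1 was higher in Pi by 0.52 ± 0.11 (adjusted p = 0.0167). Among 8 slow fibre partners 2 were lower in Pi, named here after their values were seen: MYL2, the slow regulatory light chain, by 0.45 ± 0.10 and ATP2A2, the slow calcium pump, by 0.29 ± 0.06. The calls were fragile: none of the 6 genes passed without DL pool b, Pi pool a or Pi pool b, 1 passed without DL pool a. In these fits TNNI1 was at -0.35, -0.27, -0.33 and -0.27 and, in the first 3, TNNT1 at -0.34, -0.29 and -0.38. The TNNI2 minus TNNI1 call ended without DL pool a (0.43), DL pool b (0.52) or Pi pool a (0.42). A fit of the 91 dpc groups alone called 0 of 6.

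In adults TNNI1 was lower in Pi by 0.39 ± 0.08 (adjusted p = 0.00537), the 1 call of 6 genes where 6.33% of all probe sets passed, 3.44% lower. TNNI2 minus TNNI1 was higher in Pi by 0.41 ± 0.11 (adjusted p = 0.0367), a call that ended without DL pool a (0.43), DL pool b (0.36), Pi pool a (0.41) or Pi pool b (0.36), and under hybridisation-control scaling (adjusted p = 0.061), array weights (adjusted p = 0.444), the replicate block (adjusted p = 0.0519) or the filter on dim probe sets (adjusted p = 0.0647). Neither was called in the fit of the adult groups alone (TNNI1 adjusted p = 0.262), and TNNI1 was not called with array weights (adjusted p = 0.138). TNNT2 at 0.64 ± 0.29 did not pass (adjusted p = 0.234), and single pools decide this value: without Pi pool b, the one with liver genes, it was 0.35, and without Pi pool c, the low one, it was 1.13 (adjusted p = 0.00308), with TNNT1 minus TNNT2 at -1.21 and TNNT3 minus TNNT2 at -1.07 also called. In Pi pool c TNNI3, the cardiac troponin I, was at 8.64, against 7.17 and 7.05 in the other Pi adult pools, and its part in the TNNT2 value was not tested. Without Pi pool b TNNI1 was still lower in Pi, by 0.35 (adjusted p = 0.0166). TNNC2, TNNI2 and TNNT3 differed by -0.01, 0.02 and 0.01, with 95% intervals within -0.20 to 0.22. Of 8 slow fibre partners CASQ2 (-4.39 ± 0.58) and MYBPC1 (-0.64 ± 0.13), a slow myosin-binding protein, were lower in Pi, and of 11 regulators the homeobox factor SIX4 (-1.27 ± 0.14). Of 14 thin filament genes 3 were higher in Pi, TPM4 with the largest difference (0.65 ± 0.14), and 2 lower, led by cardiac actin ACTC1 (-1.28 ± 0.26), which is also the 1 of 2 embryonic and cardiac partners that was lower. None of the 5 fast fibre partners passed in limma, 0 of them at an unadjusted p under 0.05. Of the markers 1 of 8 for skeletal muscle and 1 of 8 for nerve were lower in Pi and 1 of 4 for red blood cells was higher, and their part was not tested.

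Averaged over the 4 stages, TNNI1 was lower in Pi by 0.23 ± 0.04 (adjusted p = 0.00179) and TNNT3 by 0.19 ± 0.05 (adjusted p = 0.0334), 2 of 6 genes where 6.29% of all probe sets passed, 3.24% lower. The TNNT3 value rests on 35 dpc (-0.76), since its later values were 0.08, -0.09 and 0.01, and it lost its call in 12 of 24 fits that left out 1 pool (adjusted p up to 0.0654). These were pools b and c of DL 35, c of DL 63, a of DL 91, c of DL adults, b and c of Pi 35, b and c of Pi 63, a and b of Pi 91 and c of Pi adults, and without pool a of DL 35 TNNI2 was called as well (-0.13). Under hybridisation-control scaling the TNNT3 value was -0.26 and not called (adjusted p = 0.0621). TNNI1 was called lower in Pi at 91 dpc and in adults, its 35 dpc value of -0.24 was not called in the main fit, and its pools overlapped at 63 dpc. Of the 8 slow fibre partners 6 were lower in Pi on this average, led by CASQ2 (-1.47 ± 0.29), PLN (-0.86 ± 0.21) and MYBPC1 (-0.33 ± 0.07). None of the first 4 isoform differences passed, in limma or in the exact permutation test within stages (adjusted p = 0.275 to 0.586).

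**Figure D4:**
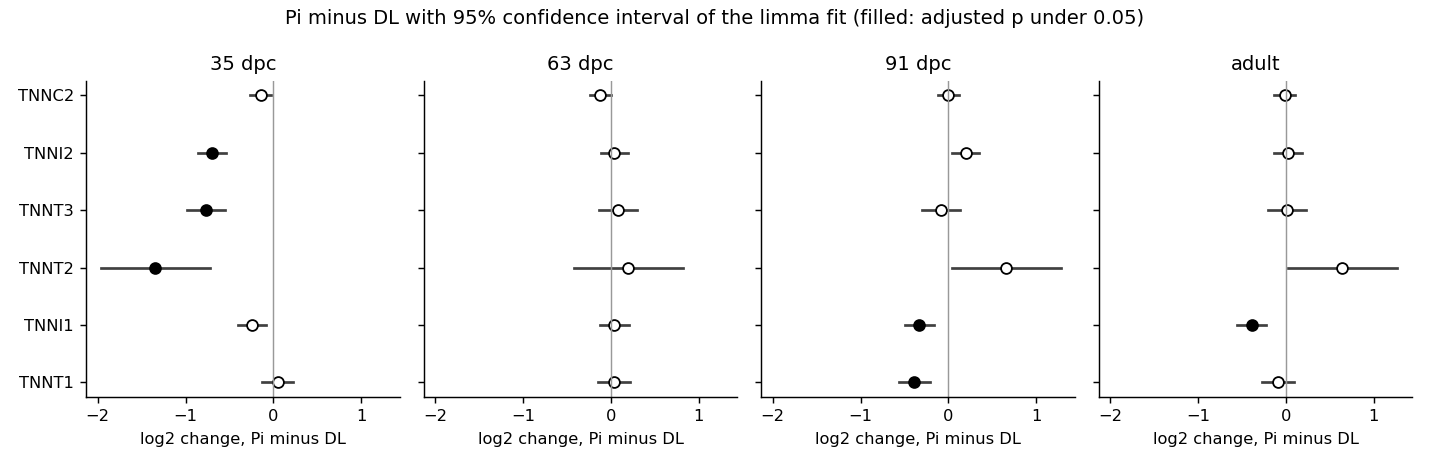
Pi minus DL on the log2 scale for the 6 troponins at each stage, each point the limma estimate with its 95% confidence interval, filled where the adjusted p is under 0.05. TNNI2, TNNT3 and TNNT2 are lower in Pi at 35 dpc (-0.70, -0.76 and -1.35; at hybridisation-control scaling -0.21, -0.27 and -0.85, none called), all intervals at 63 dpc but that of TNNC2 span 0, and TNNI1 is lower in Pi at 91 dpc and in adults (-0.33 and -0.39).

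The step from 35 to 63 dpc was larger in Pi than in DL for both fast isoforms that had started lower. The interaction was 0.74 ± 0.11 for TNNI2 (limma, adjusted p = 0.000987) and 0.85 ± 0.14 for TNNT3 (adjusted p = 0.00313), 2 of 6 genes where 3.30% of all probe sets passed, 1.98% with a larger step in Pi. For TNNT2 it was 1.54 ± 0.42 and did not pass (adjusted p = 0.0509), though it was called with array weights (adjusted p = 0.000175), in the fit of those groups alone (adjusted p = 0.000801), with a trended, robust prior (adjusted p = 0.0389) and with the replicate block (adjusted p = 0.0361). TNNT3 minus TNNT1 had an interaction of 0.86 ± 0.19 (adjusted p = 0.017), which ended without DL 63 dpc pool a (0.79, adjusted p = 0.0504), and TNNT1 minus TNNT2 one of -1.56 ± 0.41 (adjusted p = 0.0472), which ended with any 1 of the 12 pools left out (adjusted p up to 0.101). Scaled to the hybridisation controls, the TNNI2 and TNNT3 interactions were 0.13 and 0.24 (limma, adjusted p = 0.627 and 0.448). With that scaling TNNC2 (-0.59, adjusted p = 0.0213) and TNNT1 (-0.62, adjusted p = 0.0373) were called instead, both with a negative interaction. The interactions of the isoform differences kept their size, which was fixed in advance because this scaling shifts both probe sets of an array together. Of the 8 skeletal muscle markers 4 had a called positive interaction and none a negative one, with a median of 0.62, among them CKM (0.96 ± 0.14). Of 14 thin filament genes 1 was called, TPM2, a tropomyosin (1.08 ± 0.14), and the list median had the other sign, at -0.11. In limma 0 of 5 fast fibre partners, 0 of 2 embryonic and cardiac partners and 0 of 11 regulators passed, with 1, 0 and 1 at an unadjusted p under 0.05. One of 8 slow fibre partners had a called positive interaction. For the later steps limma called 0 of 6 genes, where 0.0917% of all probe sets passed for 63 to 91 dpc and 2.66% for 91 dpc to adult. At an unadjusted p under 0.05 there were 2 genes for the first of these, TNNI1 and TNNT1, and 1 for the second, TNNT1.

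Across the 8 group means the 6 genes fell into unlike profiles. TNNI2 and TNNT3, the fast pair that lie close together in the genome, had a Pearson correlation of 0.998, and TNNC2 had 0.935 with TNNI2 and 0.931 with TNNT3. The slow genes TNNI1 and TNNT1 had 0.816, TNNI1 and TNNC1 had 0.923, and TNNT2 had -0.899 with TNNT1 and -0.967 with TNNI3. TNNI1 and TNNT2, with 1 gene between them, had -0.755, and TNNT1 and TNNI3, directly beside each other, had 0.842. These are descriptions over 8 means from shared arrays. Among 5361 genes whose group means span at least 1 log2 unit, the profile most like TNNT3 was that of CKM (0.999), followed by TNNI2 and LOC102159087 (0.998 for both), and TNNI2 was nearest to TNNT3, LOC102159087 (0.997) and CKM (0.996). The nearest to TNNC2 were CILP (0.994), PLP2 (0.991) and SMTN (0.989), and to TNNI1 GPR183 (0.982), BAP1 (0.979) and AIMP2 (0.978). For TNNT1 they were MTCH2 (0.991), POLR1C and LAMTOR5 (0.988 for both), and for TNNT2 TMEM26 (0.997), CHD3 (0.996) and TCF19 (0.993).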

How the data were processed

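Intensities were deposited by the authors as 1 log2 value per probe set and array, a scale taken as log2 from the range of 1.60 to 16.10. GCOS 1.1.1 is listed per the submitters' processing notes, and the probe summary or background method was not given in the sources used here. After sorting, all 24 deposited columns hold equal values (median 5.43), so they were quantile-normalised and cannot show a change in total mRNA.

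Of 24123 probe sets 124 controls were left out. The array annotation gave 1 symbol to 10069 of the rest, several to 198 and none to 13732, and the probe set with the highest mean stood for a gene. Symbols were placed in gene order with RefSeq's Sscrofa11.1 table. One limma 3.58.1 model (R 4.3.3) with 8 group means was fitted to 23999 probe sets, with isoform differences added as rows (16 residual and 1.31 prior degrees of freedom), two-sided, with Benjamini-Hochberg adjustment over all rows and a threshold of 0.05. The script was tested on simulated data. Exact permutations of arrays served as an alternative for the isoform differences, beside array weights, other priors and filters, hybridisation-control scaling, a GAPDH covariate, a pool block, fits of only the groups compared and leaving out 1 pool. TNNC2 minus TNNC1 was added after the array was seen to carry TNNC1. The number of arrays limits the precision.

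The members and the gene lists were chosen with earlier results of these data known. The text names the 6 genes, TNNC1 and TNNI3, at most 3 genes of a partner list with the largest change in a comparison (MYL2, ATP2A2, TPM2 and the markers CKM, DES, HBE1 and SMTN were chosen after their values were seen), and the 3 genes with the most similar group means. The lists were thin filament, fast fibre, slow fibre, embryonic and cardiac partners, regulators of troponin genes, and markers of skeletal muscle, heart, smooth muscle, nerve, liver, red blood cells, connective tissue, fat and cycling cells. For 63 minus 35 dpc the lists not described with the results had 3 of 4 smooth muscle and 1 of 3 fat markers higher, 2 of 4 red blood cell and 2 of 4 cycling markers lower, 1 of 5 connective tissue markers higher and 1 lower, 2 of 5 heart markers lower, and 0 of 8 liver markers called by limma, with 0 at an unadjusted p under 0.05.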

Additional observations from a re-analysis of the deposited data

Results flagged for a closer look

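Pi and DL differed in the step from 35 to 63 dpc by a test of the difference itself (limma interaction). The step was larger in Pi by 0.74 for TNNI2 and by 0.85 for TNNT3. It was larger in Pi by 0.86 for TNNT3 minus TNNT1, and it differed by -1.56 for TNNT1 minus TNNT2. Under hybridisation-control scaling the values of TNNI2 and TNNT3 were 0.13 and 0.24 and not called (adjusted p = 0.627 and 0.448). TNNC2 (-0.59) and TNNT1 (-0.62) were called there instead, both with a negative interaction. The call of TNNT3 minus TNNT1 ended without DL 63 dpc pool a, and that of TNNT1 minus TNNT2 with any 1 of 12 pools left out. No group has over 3 pools, so single pools were not tested as outliers.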

How the results depend on the processing

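Of 2172 values recomputed under another setting, 1968 kept their sign and their side of the threshold, 125 changed side with the same sign, and 79 changed sign. Of these 79, 75 were called in neither setting, 48 of them with 1 pool left out and 17 under scaling to the hybridisation controls. The other 4, called in at least 1 setting, all turned under that scaling: TNNI1 for 63 minus 35 dpc (-0.40), TNNI2 for adult minus 91 dpc (-0.11), TNNC2 for Pi minus DL at 35 dpc (0.35) and TNNC2 for the interaction of breed with 35 to 63 dpc (-0.59). By its construction this scaling shifts all probe sets of an array together. Of 297 alternatives for the isoform differences over the steps 296 kept their call, the exception being TNNI2 minus TNNI1 for adult minus 91 dpc with the GAPDH covariate (-0.47). Part of this was fixed in advance and is no support. The control scaling and the replicate block cannot change the size of a difference. TNNT1 minus TNNT2 also follows from the other troponin T pairs. Of 196 recomputed counts of genes called 144 were the same, and those that moved by more than 1.5 times were these. For 91 minus 63 dpc there were 3 under the control scaling, against 5. For Pi minus DL at 35 dpc there were 5 with array weights and 5 with a trended, robust prior, against 3. At 91 dpc there were 4 under the control scaling and 0 in the fit of those groups alone and without dim probe sets, against 2, and 0 to 2 with 1 pool left out. In adults there were 0 with array weights and 0 in the fit of those groups alone, against 1, and 1 to 2 with 1 pool left out. On the average of stages there were 1 under the control scaling, 1 with array weights, 1 without dim probe sets and 4 with the trended prior, against 2, and 1 to 3 with 1 pool left out. Smaller moves included 4 under the control scaling, against 6, for both 63 minus 35 dpc and adult minus 91 dpc, and 2, against 3, for Pi minus DL at 35 dpc. Beyond fewer or more groups, samples and probe sets in a fit, the cause was not tested.

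Pool letters did not pair the pools: over 84 pairs of same-lettered pools in different groups the correlation of their deviations was -0.08 to 0.09, and 0 exceeded 0.1. With the letter as a replicate block the counts of genes called stayed within 1.5 times in all 11 comparisons, with 3, against 2, for the interaction with 35 to 63 dpc, where TNNT2 (1.54) was called with adjusted p = 0.0361, and TNNI2 minus TNNI1 in adults (0.41) was not called with adjusted p = 0.0519. The mean of all probe sets of a gene was not run as an alternative, since each gene has 1. Signal over background does not limit the 6 genes, and TNNC2, adult TNNT3, adult TNNI2 and adult TNNT1, near the top of the scale, may be compressed.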
